A study of Drosophila melanogaster with 2 samples.

Results

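The embryonic head patterning genes are a set of 10 regulators: oc, ems, btd, tll, slp1, slp2, croc, cnc, hkb and kn. They are 10 of the 13968 protein-coding genes annotated on the chromosome arms. A peak was counted at one of them when its summit fell inside the gene or less than 10 kb to either side, a rule that uses position and no measured height. In the main list of Rx-eGFP peaks, 10 of 3303 peaks met this rule. Their loci, with 10 kb on each side, cover 302 kb in 9 separate stretches, because the slp1 and slp2 loci touch.

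The peaks come from chromatin immunoprecipitation with sequencing (ChIP-seq) on whole Drosophila melanogaster embryos collected over 0 to 24 h of development. The only group, Rx-eGFP, was a strain of transgenic flies called Rx-GFP that express Rx-eGFP fusion proteins. Chromatin was precipitated with an anti-GFP antibody according to the sample descriptions, although the antibody field of the same labels names Rx. The group had 2 biological replicates of this strain. The sources used here give neither the regulatory sequence that drives the fusion nor the sex of the embryos, and no untagged embryos were analysed here. Whole embryos pool every tissue and the full span of embryogenesis, so a peak does not tell in which cells or at what time it arose. The data were 4 thresholded peak lists and 4 longer ranked lists without a threshold. They carry no read counts, so the sequencing depth is unknown. The main list is the conservative series-wide list, with 3250 of its peaks on the 7 chromosome arms. The other series-wide list held 3476 peaks, and the replicates' own lists held 2438 (replicate 1) and 2209 (replicate 2).

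The most anterior insect head segments are laid down by overlapping domains of transcription factors, not by the pair-rule genes of the trunk. The head gap-like genes oc, ems and btd are expressed in nested stripes, the terminal genes tll and hkb act at the poles downstream of the Torso receptor, and slp1, slp2, croc, cnc and kn refine the labral, mandibular and intercalary regions. Rx, the retinal homeobox gene, encodes a paired-class homeodomain protein whose relatives are known for their part in eye and forebrain development, and in the fly embryo it is expressed in the head.

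The sequences of 5 of the main-list peaks that hold letters of the searched motifs are printed first, among them the 3 tallest at these genes. They were read from the dm6 reference genome on its plus strand, from 100 bp before to 100 bp after the summit, except that the narrow slp1/slp2 peak is printed whole. Capitals mark every match to a searched motif on either strand. The kn windows also hold matches and are not printed. The kn peak of height 92.0 has TGTTTAC 14 bp before and 26 bp after its summit, and the other has ACAGTG.
slp1/slp2, chr2L:3832441-3832602: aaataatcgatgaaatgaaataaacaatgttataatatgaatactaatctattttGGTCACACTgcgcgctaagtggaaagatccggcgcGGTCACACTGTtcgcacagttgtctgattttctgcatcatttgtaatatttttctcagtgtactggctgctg
btd, chrX:9687661-9687861: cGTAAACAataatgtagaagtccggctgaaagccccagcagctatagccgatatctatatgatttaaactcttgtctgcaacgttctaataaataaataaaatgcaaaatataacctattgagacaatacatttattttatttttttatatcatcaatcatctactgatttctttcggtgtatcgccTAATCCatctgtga
cnc, beyond its 3′ end, chr3R:23175563-23175763: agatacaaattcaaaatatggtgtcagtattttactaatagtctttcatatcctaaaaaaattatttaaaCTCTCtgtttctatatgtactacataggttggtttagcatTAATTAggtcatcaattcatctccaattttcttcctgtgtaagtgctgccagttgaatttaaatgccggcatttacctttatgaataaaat
cnc, at an internal start, chr3R:23189988-23190188: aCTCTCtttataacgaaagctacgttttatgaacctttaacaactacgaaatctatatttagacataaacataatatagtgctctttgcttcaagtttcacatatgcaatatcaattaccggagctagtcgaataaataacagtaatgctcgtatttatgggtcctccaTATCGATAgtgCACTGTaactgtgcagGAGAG
oc, beyond its 3′ end, chrX:8627277-8627477: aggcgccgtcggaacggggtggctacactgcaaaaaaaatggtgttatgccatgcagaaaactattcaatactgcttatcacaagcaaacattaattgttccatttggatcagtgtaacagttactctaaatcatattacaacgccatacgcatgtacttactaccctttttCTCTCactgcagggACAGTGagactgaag

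The tallest peak at the head patterning genes lay between the sloppy paired neighbours slp1 and slp2, which both encode forkhead-domain transcription factors. Its height, the authors' signal value, was 366 in the main list, which placed it at rank 127 of 3250. The peak was 162 bp wide, while 9 of the 10 head gene peaks and 2801 of the 3250 main-list peaks had the same width of 284 bp. Its summit lay in intergenic sequence, which here means outside protein-coding genes. It was 4317 bp upstream of the slp2 start and 6848 bp downstream of the slp1 start, so the 1 peak counts for both genes. In the replicates' own ranked lists it had a height of 205 in replicate 1 and 167 in replicate 2. It stood near the top in both, at rank 119 and rank 145, and it was in both thresholded lists. The printed sequence holds GGTCACACT at both sites shown in capitals, 27 bp before and 8 bp after the summit on the plus strand, and the second copy shares letters with an ACAGTG on the minus strand. This peak's window was the 1 window of 3250 (0.0308%) with 2 or more copies of GGTCACACT, a count that was made after the matches had been seen. GGTCACACT is the core of the motif of M1BP, a zinc finger protein of core promoters, yet this summit was more than 4 kb from any protein-coding start.

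A lower peak lay on the other side of slp2, 1934 bp past its 3′ end and 4279 bp downstream of its start, at chr2L:3840977-3841260. Its main-list height was 66.6, rank 2355, the lowest of the 10. The replicates differed most here in favour of replicate 2, with 23.1 in replicate 1 and 43.2 in replicate 2, a ratio of 0.536. Replicate 1 had it only in its ranked list, at an irreproducible discovery rate (IDR, an estimate of how much of a ranked list down to a peak fails to repeat) of 0.549. Replicate 2 also listed a further peak of 8.71 that overlapped this one.

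**Figure D1:**
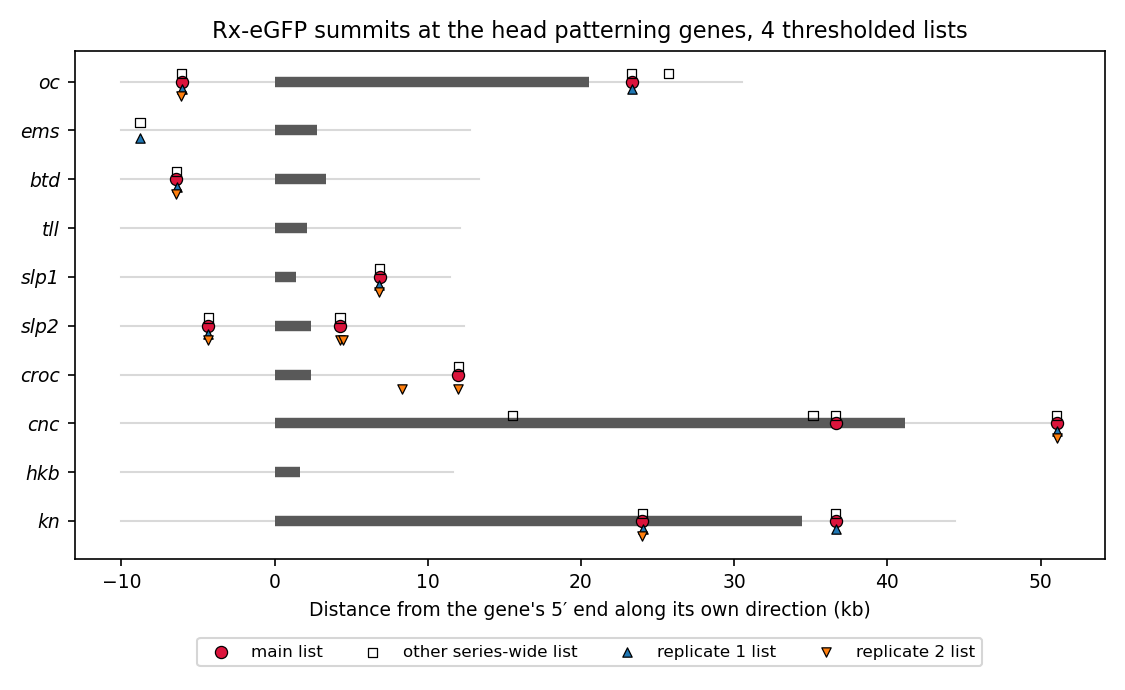
Positions of Rx-eGFP summits at the 10 head patterning genes in the 4 thresholded lists, as the distance in kb from each gene's 5′ end along its own direction. Dark bars are the genes, thin lines the 10 kb on each side, and symbols the lists; tll and hkb carry no summit in any list, and ems carries none in the main list.

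Of the head gap-like genes, btd encodes an Sp-family zinc finger protein that is required for several head segments. The single peak near it had a main-list height of 207, rank 427, and was in the thresholded lists of both replicates. Replicate 1 had 104 and replicate 2 had 92.8. The summit was intergenic, 6425 bp upstream of btd, and its nearest protein-coding start was 695 bp away and belonged to nej, the gene of the CBP acetyltransferase. The printed btd window has TGTTTAC on the minus strand at its left edge and TAATCC near its right edge, 99 bp before and 87 bp after the summit.

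The gene oc, also called orthodenticle, encodes a homeodomain protein of the bicoid-like class and had 2 main-list peaks, on opposite sides of a transcription unit of 20523 bp. The peak at chrX:8656595-8656878 lay 6056 bp upstream of oc, at a main-list height of 107 and rank 1280. It had 44.7 in replicate 1 and 61.0 in replicate 2, and both replicates listed it. The peak at chrX:8627235-8627518 lay 2782 bp past the 3′ end, at a height of 74.8 and rank 2050. Its height was 43.0 in replicate 1, which listed it, and 33.3 in replicate 2, where its IDR score of 773 was under 830, the lowest score in the thresholded lists. The order of the replicates was thus opposite at the 2 oc peaks. The other series-wide list held a further oc peak of 60.1, at chrX:8624816-8625099, with 19.2 in replicate 1 and 30.9 in replicate 2.

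The homeobox gene ems, required for head segments that overlap those of btd, had no main-list summit within 10 kb. A peak of 60.3 at chr3R:13892922-13893205, 8789 bp upstream of ems, was in the other series-wide list. Replicate 1 listed it with a height of 41.2, and replicate 2 had it only in its ranked list with 19.1, a ratio of 2.16. In the ranked list behind the main list this peak had an IDR of 0.0580. The edge of the rule fell close to ems: main-list peaks of 145 and 105 lay 10319 bp and 11217 bp past the gene, and ems had the protein-coding start nearest to both, at 13086 bp and 13984 bp. Just inside the edge were the cnc peak of 144 at 9917 bp and the croc peak of 82.8 at 9642 bp. Just outside it, besides those at ems, were a peak of 59.6 at 10885 bp from hkb, at the promoter of CG9776, and a peak of 77.5 at 12124 bp from cnc, 417 bp upstream of a CG46310 start.

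The terminal genes tll and hkb had no peak past the authors' thresholds. Neither tll, a nuclear receptor gene, nor hkb, an Sp-like zinc finger gene, had a summit within 10 kb in any of the 4 thresholded lists. The main-list summits nearest to tll were 33495, 34835 and 38294 bp away, with heights of 100, 101 and 127, nearest to starts of Sap-r and cindr. In the ranked list, which has no threshold, the highest peak at tll was 42.5, in a coding exon of the gene 1641 bp from its start, at an IDR of 0.749, and of 0.0810 in the other series-wide ranked list. That peak ranked 5953 of 135908 peaks on the arms. The highest ranked peak at hkb also had a height of 42.5, in a coding exon of the neighbouring CG1103, with an IDR of 0.172, and of 0.709 in the other series-wide ranked list, and the highest in hkb itself was 32.2.

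Of the genes that act in later head regions, cnc, which encodes a basic leucine zipper protein of the labral and mandibular segments, had 2 main-list peaks. The taller, at chr3R:23175521-23175804, had a height of 144, rank 828, with 76.7 in replicate 1 and 68.1 in replicate 2, and both replicates listed it. It lay 9917 bp past the 3′ end of cnc and 13466 bp from the nearest cnc start, in an intron of Irk1, a potassium channel gene, and of CG46310. Its printed window holds TAATTA, the core that homeodomains of the paired class bind, 10 bp past the summit. The lower, at chr3R:23189946-23190229, was the only one of the 10 within 500 bp of a head gene start, 331 bp downstream of an internal start of cnc. Its main-list height was 69.4, with 36.2 in replicate 1 and 32.7 in replicate 2. It was also the only one of the 10 in neither replicate's own thresholded list, at IDRs of 0.0625 and 0.214, a state shared by 24.9% of all main-list peaks. Its window holds TATCGATA and ACAGTG, 69 bp and 80 bp past the summit. The other series-wide list added cnc peaks of 57.5 and 54.7, of which the lower was 287 bp upstream of a cnc start.

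The forkhead gene croc, which acts in the clypeolabrum, had 1 main-list peak at chr3L:21464349-21464632. It lay 9642 bp past the gene and 11988 bp downstream of its start, with a main-list height of 82.8 and rank 1823. Replicate 2 listed it at 47.3, while in replicate 1 its height was 35.4 and its IDR score of 802 fell short of 830. Replicate 2 listed a further peak at chr3L:21468014-21468269 with 32.1, which was absent from the 3 other thresholded lists and had an IDR of 0.649 in the ranked list behind the main list.

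The gene kn, or collier, encodes a transcription factor of the COE family that acts in the intercalary and mandibular region. It had 2 main-list peaks on chromosome arm 2R, both with BEAF-32, an insulator protein gene, as the nearest start. The peak at chr2R:14770287-14770570 was 40 bp upstream of a BEAF-32 start and 2221 bp past the 3′ end of kn. Its main-list height was 92.0, rank 1588, with 65.9 in replicate 1 and 28.9 in replicate 2. This was the widest gap in favour of replicate 1, a ratio of 2.28, and replicate 2 had the peak only in its ranked list, at an IDR of 0.0520. The peak at chr2R:14782905-14783188 lay in an intron of kn, 13980 bp from the nearest kn start. It was more even, with a main-list height of 87.9, and 46.6 in replicate 1 against 41.8 in replicate 2, and both replicates listed it.

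**Figure D2:**
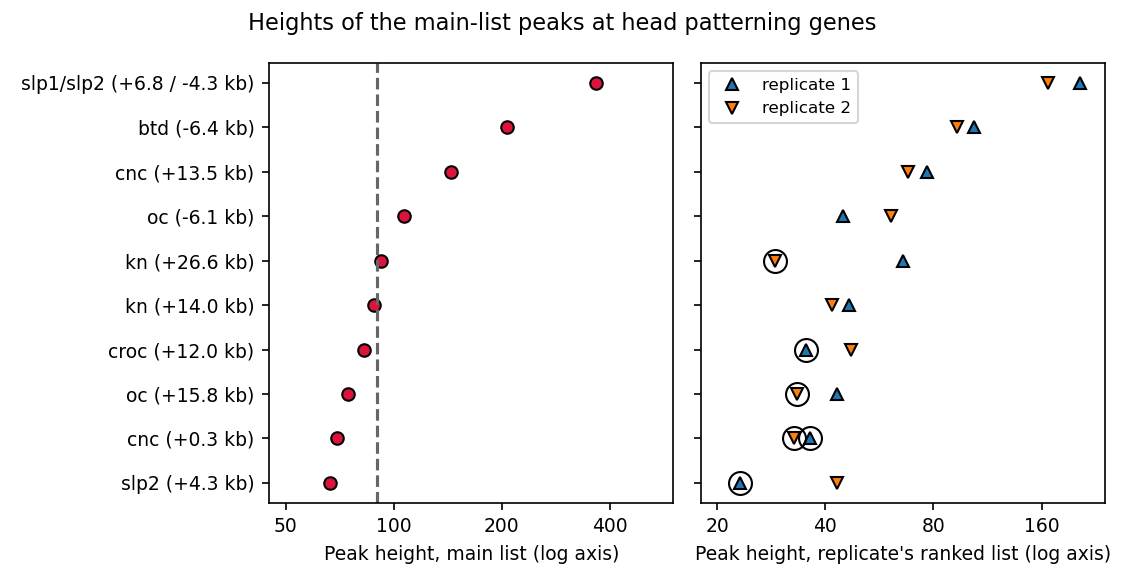
Heights of the 10 main-list peaks at head patterning genes, in the main list (left) and in the ranked list of each replicate (right), both on log axes in the authors' signal units, labelled with the distance from the nearest start of the gene. The dashed line is the main-list median of 90.1 and a circle marks a replicate whose own thresholded list lacks the peak; 5 peaks lie above the line, and 5 carry no circle.

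Set against all genes, a summit within 10 kb was common. In the main list 7 of the 10 head patterning genes had one (70.0%, 95% Wilson interval 39.7 to 89.2%), against 51.6% of all 13968 genes. The other series-wide list gave 8 of 10 against 53.0%, replicate 1 gave 7 against 44.0%, and replicate 2 gave 7 against 41.8%. The all-gene share in the main list lies inside this interval, so at 10 genes the share with a summit within 10 kb in the main list could not be told from the background. The genes oc, slp2, cnc and kn, 4 of 10, had 2 or more main-list summits, against 23.6% of all genes. Within 2 kb, 3 of 10 had a summit, against 26.5% of all genes. In the gene itself 2 of 10, cnc and kn, had one, against 9.40%. The genes oc, cnc and kn are long, at 20523, 41132 and 34412 bp against a median of 2164 bp over all genes. A longer gene has a wider window, and the part of length in these counts was not tested. The genes oc, ems, slp2, croc and cnc, 5 of 10 (Wilson interval 23.7 to 76.3%), owned the start nearest to a main-list summit, against 16.6% of all genes. For ems this rests on summits more than 10 kb from the gene. The interval does not hold the all-gene share, but this was no test, because the members were chosen with earlier results of these data known. The nearest-start count has no limit on distance. These loci are 47.7% intergenic, against 31.1% of the arms, and the part of gene spacing was not tested. Only cnc had a summit within 500 bp of a start (13.2%). The intervals cover counting error over genes, and neighbouring genes can share a summit.

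Counted by length, the head gene loci held 33.1 main-list summits per Mb, against 23.6 per Mb over the arms, a ratio of 1.40. The density over the arms covers all 138 Mb of the 7 arms, Y included, while the head loci are windows around genes. No density over windows of other genes is given here, and the part of this difference was not tested. The ratio was 1.86 in the other series-wide list, 1.51 in replicate 1 and 1.89 in replicate 2. The count of replicate 2 includes its further peak of 8.71 that overlaps the 3′ slp2 peak. In the 4 ranked lists the ratio was 1.12 to 1.22, with 334 ranked peaks at the head genes in the main one. In the main list heights did not stand apart, with a median of 90.0 for the 10 head gene peaks and 90.1 over the arms. In the other series-wide list the medians were 78.8 at the head genes and 86.8 over the arms. In replicate 1's own list they were 56.3 and 60.0, and in replicate 2's they were 47.3 and 58.2, so the head gene median was the lower in each thresholded list.

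**Figure D3:**
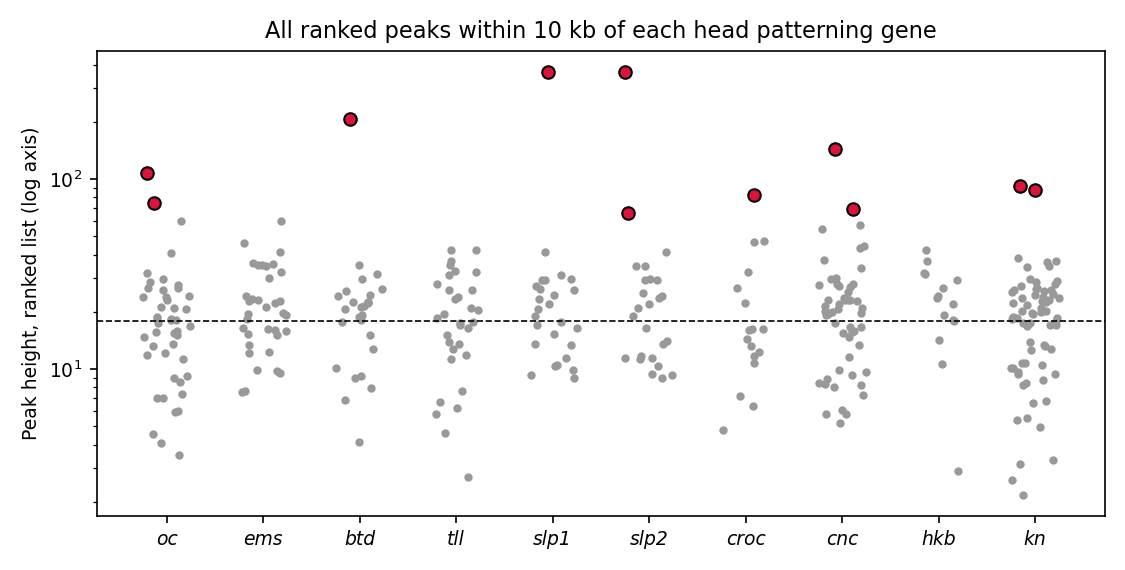
Heights of all peaks within 10 kb of each head patterning gene in the ranked list behind the main list, in the authors' signal units. Red points are also in the main list and the dashed line is the median of the ranked list on the arms, 17.9; at ems, tll and hkb no red point occurs, and the highest peaks there are 60.3, 42.5 and 42.5.

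The head gene peaks lay mostly away from promoters. Of the 10 summits, 6 were intergenic (60%, Wilson interval 31.3 to 83.2%), against 17.8% of the 3250 main-list summits. Promoters held 2 (20%, interval 5.67 to 51.0%), against 42.7%, where a promoter is the 500 bp on either side of a protein-coding start. Introns held 2 (20%), against 36.9%. The intergenic share was 57.1% of 14 summits in the other series-wide list, 62.5% of 8 in replicate 1 and 77.8% of 9 in replicate 2, against 18.2%, 17.7% and 17.6% of all summits in those lists. The summits of replicate 2 include its further, also intergenic, peak of 8.71 that overlaps the 3′ slp2 peak. The loci themselves are richer in intergenic sequence, which made up 47.7% of their bases against 31.1% of the arms, while promoter sequence made up 10.8% and 11.2%. The part of that make-up in the shares of summits was not tested. The median distance to the nearest protein-coding start was 4298 bp for the 10 summits and 812 bp for the main list, and 4 of 10 (40%) lay more than 5 kb from any start, against 21.4%. For 6 of the 10 summits the nearest start belonged to a head patterning gene, and for the others it belonged to nej, BEAF-32 or CG46310.

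**Figure D4:**
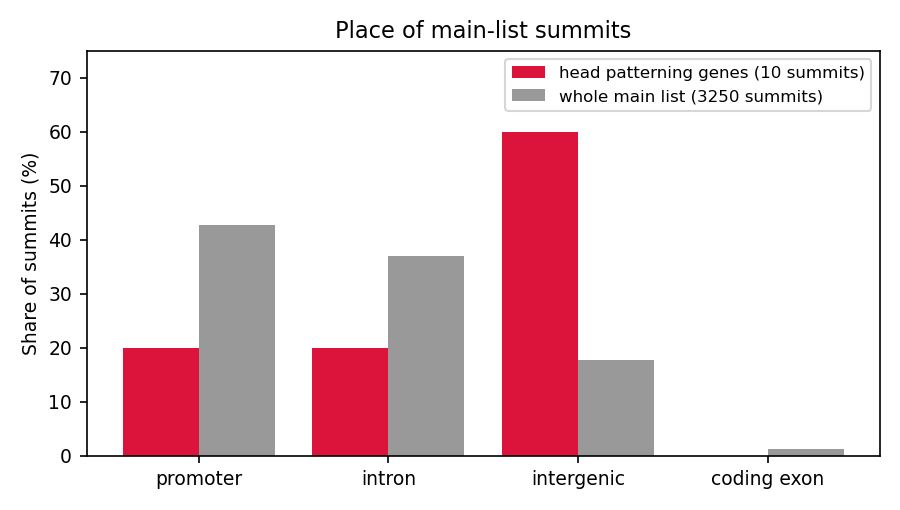
Share of summits in each class of sequence, in percent, for the 10 main-list summits at head patterning genes and for all 3250 main-list summits on the arms. Intergenic summits make up 60% at the head genes and 17.8% of the whole list, and promoter summits 20% and 42.7%.

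Peaks over the head gene promoters were present in the ranked lists. In the ranked list behind the main list 9 of the 10 genes had a peak summit within 500 bp of a start, against 75.6% of all genes. The highest such peak was 69.4 at cnc and the lowest 12.2 at ems, with a median of 32.2 over the 9 genes against 27.5 over all genes that had one, and croc had none. Replicate 1 gave a median of 15.6 over 8 head genes against 15.2, and replicate 2 gave 16.2 over 10 head genes against 16.7. Of these promoters only that of cnc had a peak in the main list.

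Support by the replicates' own lists was counted next. Of the 10 peaks, 5 (50%, Wilson interval 23.7 to 76.3%) overlapped a peak in both replicates' own thresholded lists, against 50.6%. These were the slp1/slp2 peak, the btd peak, the upstream oc peak, the distal cnc peak and the intronic kn peak. Replicate 1's list held 7 of 10 (70.0% against 65.9%) and so did that of replicate 2 (70.0% against 59.9%). Neither list held 1 of 10 (10%), against 24.9%. The median ratio of replicate 1 to replicate 2 heights was 1.12 at the head gene peaks and 1.07 over the main list. The 3 tallest head gene peaks had ratios of 1.13 to 1.22, and both extremes of the range, 0.536 and 2.28, were at peaks that only 1 replicate listed.

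Motif letters were counted in the 10 windows, each reaching 100 bp to either side of the summit and searched on both strands. TAATTA was in 1 of 10 (10%, interval 1.79 to 40.4%), against 15.4% of main-list windows, and the paired-class dimers with TAAT and ATTA 3 or 2 bases apart were in none, against 2.71% and 2.15%. TAATCC, bound by homeodomains of the class of Oc, was in 1 (5.75% of all windows). TGTTTAC, bound by forkhead proteins, was in 2 (5.88%), at the btd peak and at the BEAF-32 promoter beside kn. AAGTCA, bound by Tll, and GGGCGG, bound by Sp-family proteins such as Btd, were in none (10.3% and 5.05%). ACAGTG was in 4 (22.0%). It was searched because it was the most enriched word of its length in earlier results of these data, and no factor is assigned to it here. Of the motifs of widespread factors, GAGAG was in 3 (24.2%), GGTCACACT in 1 (1.29%) and TATCGATA in 1 (2.68%), while CAGGTA and CAGCTG were in none (4.37% and 9.75%). The end of GGTCACACT and the start of ACAGTG, read on the opposite strand, can share letters. The upstream oc, croc and 3′ slp2 windows, 3 of 10, held none of the 13 motifs, against 28.5% of all windows. A match describes the letters of the window and is not a mapped binding site. The median GC content was 35.8% in the head gene windows and 36.3% in the main list.

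A list of 26 other regulators of the anterior embryo, counted by the same rule, had 12 members with a main-list summit (46.2%), against 51.6% of all genes. Fewer had one in the other lists, with 8 in the other series-wide list (30.8% against 53.0%) and 7 in the list of each replicate (26.9% against 44.0% in replicate 1 and 41.8% in replicate 2). The highest peaks were at gro, cic, bowl and bcd. Those of gro, which encodes a corepressor, and cic, which encodes a repressor whose hold on tll and hkb Torso signalling relieves, had heights of 367 and 217. The peak of bowl, a zinc finger gene of the odd-skipped family, had 191, and that of bcd, the gene of the anterior morphogen, had 122. The gro, bowl and bcd summits were in promoters, 128, 252 and 177 bp upstream of a start, and the cic summit was in a 5′ UTR 537 bp past a start. The 14 genes with none in the main list include the gap genes hb, gt and Kr. Of the eye genes, toy, ey, eya and Optix had none there, while so had a promoter peak of 58.9, 228 bp upstream of its start. In the other thresholded lists so had no summit, while toy had 1 in replicate 2's list and Optix had 1 in replicate 1's. Rx itself and its neighbours hbn and otp, also paired-class homeobox genes, had 4, 3 and 4 main-list summits within 10 kb. Their counts were 1, 2 and 5 in the list of replicate 1 and 2, 1 and 1 in that of replicate 2. The window of Rx overlaps those of hbn and otp, so a summit can count for more than 1 of these genes. Of all genes, 23.6% had 2 or more main-list summits by this rule.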

How the data were processed

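Whole-embryo Rx-eGFP ChIP-seq was taken from the 8 peak lists that the authors deposited on dm6, per the labels. Lists of a replicate rest on that replicate alone and series-wide lists on both, with a control file, per the deposited list of derived files; the sources used here name no aligner or peak caller. The peak height is the authors' signal value, of unstated scale, and was read within a list, apart from ratios between replicates. The deposited score is a scaled IDR value, and the ranked lists add the authors' −log10 global IDR, printed here as the IDR. For a height per replicate, the tallest peak that overlapped in the replicate's ranked list was taken.

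Summits were placed on Ensembl dm6 protein-coding genes only, so intergenic sequence can hold non-coding genes. Peaks on unplaced scaffolds were left out except in totals, and sequence came from the Release 6 reference genome in its RefSeq copy (1-based coordinates). A summit took the first fitting class of promoter, UTR, coding exon, other exon, intron or intergenic. Python 3.11.15, pandas 2.3.3, numpy 2.4.6, scipy 1.17.1 and matplotlib 3.10.9 were used. The window rule and the motif search were tried on made-up positions and sequences in separate code, not in the code that made the counts. With 1 group and no read counts, nothing was tested: shares carry 95% Wilson intervals, which cover counting error only, and peaks are not independent. The named genes are the members, the owners of the nearest starts, Rx, hbn, otp and the 4 other regulators with the highest peaks. Genes beyond these, such as those at the edge of the rule, were named after their values were seen. Members, gene list and motifs were chosen with earlier results of these data known. The listed gsc was matched to the annotation's Gsc. Alternatives were other lists, thresholds, distances, overlaps, promoter sizes and windows.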

Additional observations from a re-analysis of the deposited data

How the results depend on the processing

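The 7 head genes and 10 summits within 10 kb became 8 genes and 14 summits in the other series-wide list, and 7 genes with 8 or 9 summits in a single replicate's list. The highest 50% of main-list peaks by signal left 6 genes and 5 summits, where 1 summit counts for both slp1 and slp2. Distance mattered more: 2 kb gave 3 genes and 3 summits, against 26.5% of all genes with a summit. The gene itself gave 2 genes and 2 summits, against 9.40%, and 20 kb gave 9 genes and 16 summits. The all-gene share was 51.6% at 10 kb. No all-gene share at 20 kb or for the highest 50% is given here, so those counts cannot be set against all genes. Counting by the nearest start gave 5 genes, against 16.6% of all genes, and 8 summits, with no limit on distance. The share in both replicates was 50% at a reciprocal overlap of 50%, 35.7% in the other series-wide list and 100% when any ranked peak counted. The 100% shows little. The main list was made from both replicates, whose ranked lists hold 98662 and 113197 peaks on the arms without a threshold. The promoter share was 10% at 200 bp, 30.0% at 1000 bp, 21.4% in the other series-wide list, and 0 to 12.5% without one replicate. TAATTA was in 7.14 to 22.2% of windows over its alternatives. For these shares of peaks, the values over all peaks are given here only at the main settings. Of 60 counts per gene under another list or distance, 28 differed from the main count by more than 1.5 times or from or to 0, and 32 did not. The counts are small, and unknown depth limits what the absence of a peak can show.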
